A study of Mus musculus with 23 samples.

Results

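Microglia are the resident macrophages of the brain, and 33 genes that they express strongly were followed through the mouse hippocampus of the 4 groups described here. The genes were chosen as known microglial genes, by symbol, from the 39017 genes of each deposited table, and all 33 were found in both. They fall into 4 purinergic and P2Y-like receptors, 3 growth factor, fractalkine and TGF-beta receptors, 6 homeostatic surface and secreted proteins, 3 transcription factors, 3 complement C1q chains, 5 adaptors and receptors of the Fc and TREM2 type, 5 lysosomal and phagosomal proteins and 4 other myeloid genes. The RNA came from whole hippocampi, so fewer microglia and less RNA per microglial cell cannot be told apart.

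Of the libraries used, 5 came from wild-type (WT) control mice, 5 from WT mice after chronic social defeat stress (CSDS), 5 from controls labelled knockout for Nrsn2, a neuronal vesicle membrane protein, and 5 from mice of that label after CSDS. In the defeat protocol a mouse met an unfamiliar aggressive CD-1 mouse for 5 min on each of 10 days and lived behind a perforated divider between meetings. The labels give no strain, age or design of the knockout allele, and nothing says whether a library is 1 animal or a pool. If libraries of a group are not separate animals, p-values measure only technical spread.

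Resting microglia sense extracellular nucleotides through P2Y receptors, depend on CSF1R signalling for survival and on TGF-beta signalling for their identity, and receive the neuronal ligand fractalkine through CX3CR1. The transcription factors PU.1 (Spi1), IRF8 and SALL1 hold that identity. C1q tags synapses for removal, TREM2 signals through the adaptor TYROBP, and engulfed material is broken down in lysosomes that carry CD68 and cathepsins.

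Values are RPKM (reads per kilobase of gene, per M reads of the library), and tests were made on log2(RPKM + 0.5) with limma across every gene whose mean RPKM reached 0.5. A gene is called where its Benjamini-Hochberg adjusted p over all those genes is at most 0.05. All 33 members passed the filter in every comparison, at 20-library means from 0.571 RPKM for Irf8 to 127 for Ctsd. Libraries held an estimated 25.6 to 55.6 M reads, so that between 55 reads (Spi1, the lowest) and 18232 (Ctsd, the highest) lay behind a member's value in 1 library.

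Several facts of the libraries come before the results. Nrsn2 itself was not lower under the knockout label: it averaged 32.7 ± 2.53 RPKM (SD, n = 10) there and 29.4 ± 2.36 (n = 10) in WT (two-sided permutation test, p = 0.00754), so the groups are called libraries labelled knockout. For 3 further libraries the title says control and the treatment field says CSDS (WT 9B, knockout-labelled 10B and 11). They were left out of the groups, although the control means in the authors' deposited tables include them: averaging all titled controls gave those means to within 0.001 of their value for all 248 genes compared in each genotype, and averaging without them did so for 12 and 6. WT CSDS 1 and 5 stand apart from the rest: 38 of 18263 genes lay at least 0.5 log2 beyond all 18 other libraries in both of them, against at most 6 for any other pair within a group. The translation factor Eef1a1, for example, read 445 RPKM in both and 756 to 875 in the others. The labels give no strain, and whether both share the genetic background of the other libraries was not tested. Results with the WT CSDS group are therefore also given without both, an alternative chosen after the data were seen, where that ends a call or moves a value of a named gene by over 1.5 times. Control 10 of each label had Xist at 56.5 and 48.2 RPKM, and the other 18 libraries had 0.0347 to 0.0618. The Y-linked gene Ddx3y went down to 0.163 RPKM in WT controls and 0.499 in knockout-labelled controls, and was at least 9.73 in both CSDS groups. By these genes each control group held a library with female levels, and the CSDS groups held none. The effect of sex was not tested beyond leaving out control 10 of both labels.

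In WT mice, 5 of the 33 genes rose after CSDS and none fell. P2ry12, the ADP receptor that guides microglial processes, rose most, with P2ry13, a second ADP receptor beside it in the genome. The lysosomal glycoprotein gene Cd68, the lipid-sensing receptor gene Trem2 and the secreted matrix protein gene Olfml3 rose with them. All genes gave calls in 22.4% of cases in either direction and 9.88% upwards, so 5 of 33 lies close to that background. The median log2 change of the 33 was 0.103, with 27 above 0, beside -0.002 for all genes tested. Without WT CSDS 1 and 5 the calls were 4 of 33, all higher, against 13.1% of all genes in either direction, and the median was 0.055 with 22 above 0.

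In mice labelled knockout, none of the 33 rose after CSDS and 3 fell. These were Tgfbr1, a receptor chain for TGF-beta, C1qa, a chain of C1q, and Fcgr3, an activating Fc receptor for IgG. All genes gave calls in 15.0% of cases in either direction and 8.88% downwards, so 3 of 33 is near that background. The median change of the 33 was -0.03, with 12 above 0, beside -0.007 for all genes.

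**Figure D1:**
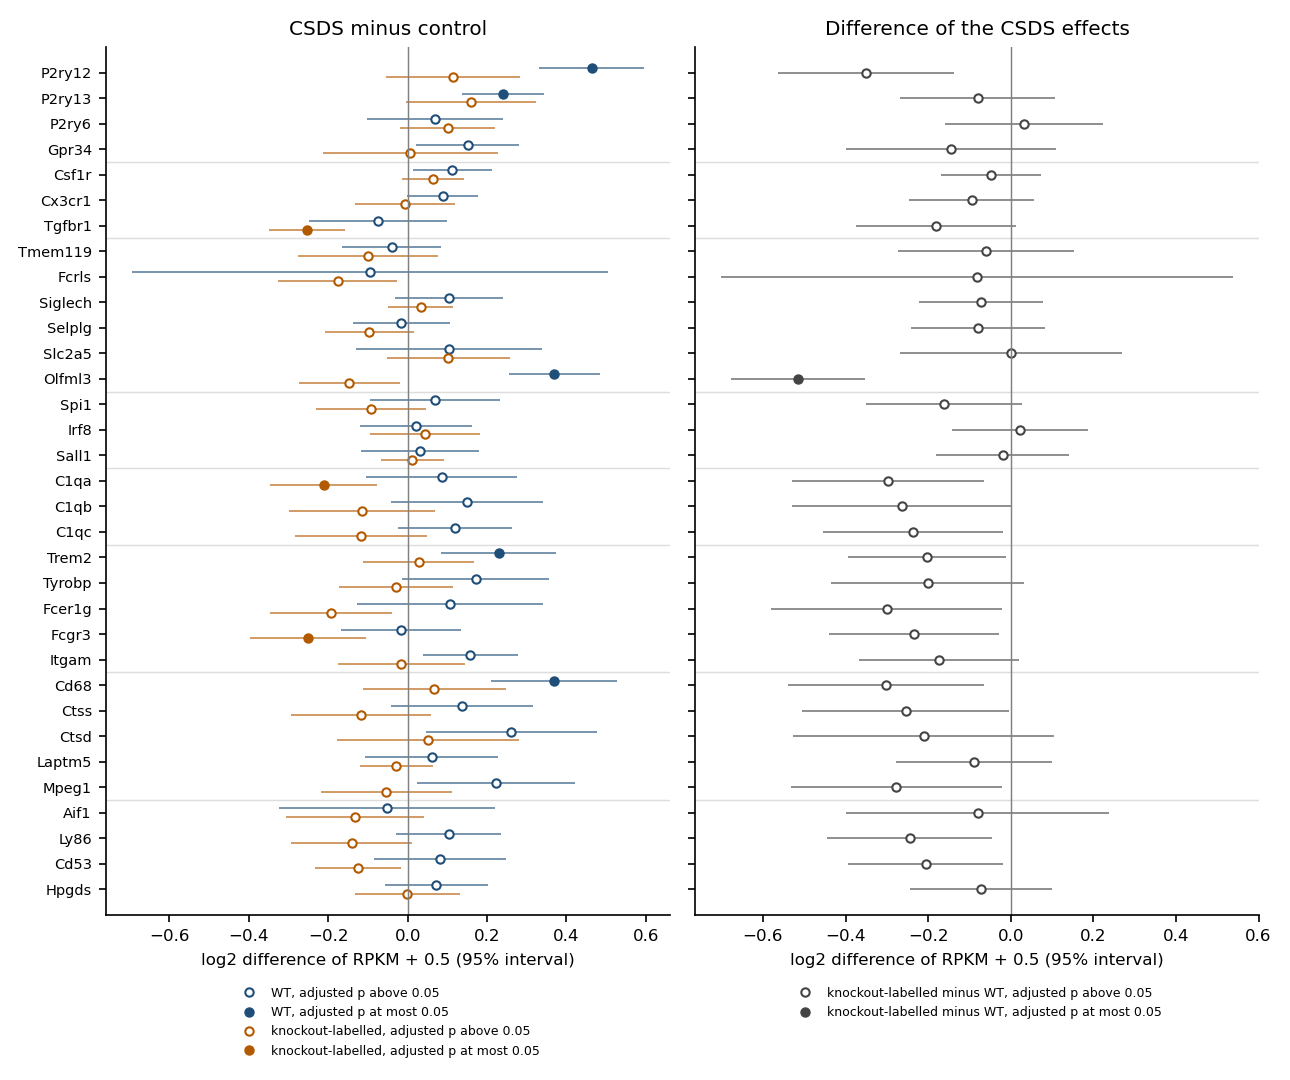
Left, log2 change after CSDS of each gene in WT (blue) and knockout-labelled libraries (orange), and right, the difference between those changes, with 95% intervals (5 libraries a group); filled points passed an adjusted p of 0.05. In WT the filled points are P2ry12, P2ry13, Olfml3, Trem2 and Cd68, all right of 0, and on the right only Olfml3 is filled.

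P2ry12 had the largest change in WT. P2ry12 (ENSMUSG00000036353, chr3:59216272-59262871, minus strand, mm10) and P2ry13 (ENSMUSG00000036362, chr3:59207892-59210882, minus strand) are neighbours inside the Med12l locus, and Med12l exons share 9 bases with those of P2ry12 and none with P2ry13. The library kit does not mark strand. Because these 2 genes, Cd68 and Olfml3 kept their call without WT CSDS 1 and 5, the RefSeq promoter of each is shown (GRCm38.p6, 250 bases before to 50 after the start, 5′ to 3′ on the gene's strand). Capitals mark any match to 3 motifs searched on both strands: GAGGAAGT (bound by PU.1), GAANNGAAA (an ETS core beside an IRF-type core) and TCACGTG (the E-box of TFEB, a regulator of lysosomal genes).
P2ry12, chr3:59262936-59263235: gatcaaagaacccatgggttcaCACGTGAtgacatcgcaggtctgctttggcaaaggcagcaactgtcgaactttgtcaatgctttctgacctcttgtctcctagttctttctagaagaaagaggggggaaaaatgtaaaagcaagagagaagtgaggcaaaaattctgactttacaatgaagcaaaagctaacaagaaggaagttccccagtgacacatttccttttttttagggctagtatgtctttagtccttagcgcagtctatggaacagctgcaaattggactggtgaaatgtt
P2ry13, chr3:59210833-59211132: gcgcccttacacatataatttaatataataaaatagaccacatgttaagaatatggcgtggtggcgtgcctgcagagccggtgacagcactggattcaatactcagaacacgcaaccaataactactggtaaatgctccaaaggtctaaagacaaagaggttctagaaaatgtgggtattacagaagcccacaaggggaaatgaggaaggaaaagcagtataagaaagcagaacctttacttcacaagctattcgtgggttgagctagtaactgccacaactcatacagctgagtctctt
Cd68, chr11:69666121-69666420: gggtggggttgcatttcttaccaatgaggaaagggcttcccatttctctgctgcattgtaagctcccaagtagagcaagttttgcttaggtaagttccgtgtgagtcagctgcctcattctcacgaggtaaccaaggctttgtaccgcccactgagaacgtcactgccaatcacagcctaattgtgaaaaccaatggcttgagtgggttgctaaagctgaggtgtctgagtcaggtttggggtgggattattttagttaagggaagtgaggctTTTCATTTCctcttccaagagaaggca
Olfml3, chr3:103737952-103738251: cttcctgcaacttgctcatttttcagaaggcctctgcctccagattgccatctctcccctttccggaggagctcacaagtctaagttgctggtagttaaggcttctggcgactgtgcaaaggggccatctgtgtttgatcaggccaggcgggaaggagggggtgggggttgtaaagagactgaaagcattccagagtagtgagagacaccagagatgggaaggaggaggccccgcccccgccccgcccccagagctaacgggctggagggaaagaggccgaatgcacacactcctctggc

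The P2ry12 window held 1 TCACGTG match on the opposite strand, starting 228 bases before the start site. The Cd68 window held 1 GAANNGAAA match on the opposite strand, 23 bases after it. No match was present in the P2ry13 and Olfml3 windows. Over the 25 members with a promoter in the RefSeq table, GAGGAAGT was present for 4 (C1qc, Cd53, Ctss and Hpgds), GAANNGAAA for 4 (Cd68, Ctss, Ly86 and Mpeg1) and TCACGTG for 3 (Ctsd, P2ry12 and Siglech). Counted by promoter, these members had 30, of which 4, 4 and 3 held the motifs. Of all 32851 promoters in that table, 3.20%, 7.52% and 3.77% held them.

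P2ry12 read 11.3, 10.6, 10.1, 11.6 and 10.4 RPKM in WT controls 6 to 10, and 16.9, 14.6, 13.7, 14.2 and 16.2 in WT CSDS 1 to 5. Every CSDS library was above every control, by 1.40-fold between the means (10.8 ± 0.613 and 15.1 ± 1.37, SD, n = 5 each), and the highest values were those of WT CSDS 1 and 5. The log2 change was 0.46 ± 0.06 (SE; limma, adjusted p = 0.000958), and 0.38 ± 0.05 without those libraries (adjusted p = 0.00527). In knockout-labelled controls 6 to 10 the receptor read 12.4, 13.4, 11.1, 10.7 and 13.2, and after CSDS 13.6, 15.0, 11.9, 12.2 and 13.3. These groups overlapped, with a change of 0.11 ± 0.08 (95% interval -0.05 to 0.28, adjusted p = 0.351). The difference between the effects in the 2 labels, -0.35 (95% interval -0.56 to -0.14), did not pass adjustment (limma, adjusted p = 0.172).

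P2ry13 read 4.26, 4.24, 3.86, 3.89 and 4.25 RPKM in the WT controls and 5.39, 4.97, 4.54, 4.80 and 4.99 after CSDS. The groups were again separate, at 1.20-fold between the means and 0.24 ± 0.05 on the log2 scale (limma, adjusted p = 0.00599, and 0.20 ± 0.05 with adjusted p = 0.0357 without WT CSDS 1 and 5). In knockout-labelled controls the values were 4.03, 4.42, 3.96, 3.85 and 4.12, and after CSDS 5.18, 5.31, 4.57, 4.06 and 4.07. CSDS libraries 1, 2 and 3 lay above all those controls and 4 and 5 among them, with a change of 0.16 ± 0.07 (adjusted p = 0.174). The difference between the labels was -0.08 (95% interval -0.27 to 0.11), and -0.04 without WT CSDS 1 and 5. The UDP receptor P2ry6 and the lysophosphatidylserine receptor Gpr34, between 0.959 and 6.20 RPKM over the 20 libraries, were called in no comparison.

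**Figure D2:**
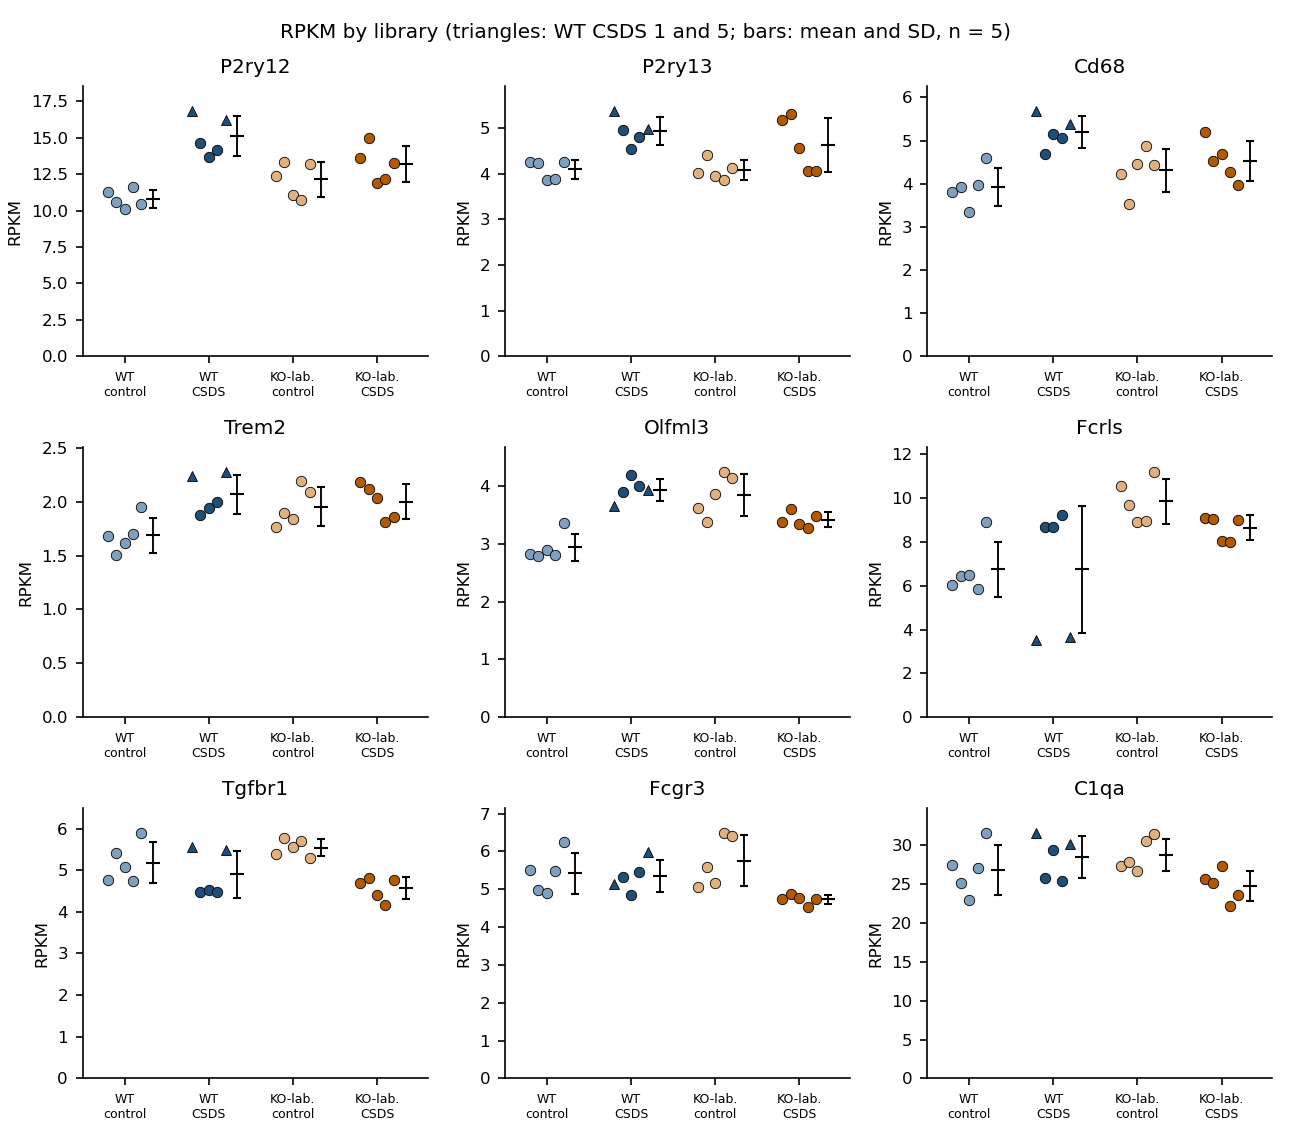
RPKM of 9 microglia genes in each library of the 4 groups (KO-lab., labelled knockout), with mean and SD beside the 5 points and WT CSDS 1 and 5 as triangles; each axis starts at 0. P2ry12 ran from 13.7 to 16.9 in WT CSDS and from 10.1 to 11.6 in WT controls, and Fcrls shows WT CSDS 1 and 5 at 3.52 and 3.66, below every other library.

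Among receptors for growth factors and cytokines, Csf1r ran from 18.6 to 23.6 RPKM over the 20 libraries and Cx3cr1 from 9.65 to 12.2, and neither was called in any comparison. Exons of Csf1r share 15.1% of their bases with Hmgxb3 on the other strand, so its level is uncertain. Tgfbr1 read 5.38, 5.77, 5.57, 5.70 and 5.29 RPKM in knockout-labelled controls and 4.70, 4.80, 4.41, 4.17 and 4.77 after CSDS. All CSDS values lay below all controls, at 0.825 of the mean level and -0.25 ± 0.04 on the log2 scale (limma, adjusted p = 0.00503). In WT it read 4.75, 5.42, 5.08, 4.74 and 5.90 in controls, and 5.56, 4.49, 4.52, 4.47 and 5.49 after CSDS. There the values above 5 after CSDS were those of libraries 1 and 5, the groups overlapped, and the change was -0.07 ± 0.08 (adjusted p = 0.532). Without those 2 it was -0.18 ± 0.07 (adjusted p = 0.113). The difference between the labels, -0.18 (95% interval -0.37 to 0.01), was not called (limma, adjusted p = 0.479), and without them it was -0.07 ± 0.08 (adjusted p = 0.803).

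Among the homeostatic proteins, Olfml3 (ENSMUSG00000027848, chr3:103722222-103738001, minus strand, mm10) was the member whose CSDS effect was called as different between the labels. It read 2.83, 2.78, 2.90, 2.81 and 3.36 RPKM in WT controls and 3.66, 3.90, 4.18, 4.00 and 3.93 after CSDS. It read 3.62, 3.38, 3.86, 4.25 and 4.14 in knockout-labelled controls and 3.39, 3.61, 3.35, 3.28 and 3.48 after CSDS. WT controls were thus the lowest group, below every library of the WT CSDS and knockout-labelled control groups, and the WT CSDS group lay wholly above the knockout-labelled CSDS group. Olfml3 rose after CSDS in WT by 0.37 ± 0.05 on the log2 scale (limma, adjusted p = 0.00131), a ratio of means of 1.34, and by 0.40 ± 0.06 without WT CSDS 1 and 5 (adjusted p = 0.00879). In knockout-labelled libraries the change was -0.15 ± 0.06 (adjusted p = 0.111), a ratio of 0.888.

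The difference between those effects was -0.52 ± 0.08 (limma, adjusted p = 0.00375), a call that 0.0876% of all genes gave in that direction, and -0.55 ± 0.08 without WT CSDS 1 and 5 (adjusted p = 0.00694). Olfml3 was also the only member called between control groups, higher in those labelled knockout by 0.34 ± 0.05 (adjusted p = 0.00162), where 2.45% of all genes were called higher. The 3 libraries of conflicting label read 2.65 (WT 9B), 3.05 (knockout-labelled 11) and 3.46 (knockout-labelled 10B). Counted as CSDS by their treatment field, they left the WT rise at 0.29 ± 0.09 (limma, adjusted p = 0.0782) and the difference at -0.45 ± 0.11 (adjusted p = 0.414), neither called.

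Meningeal fibroblast genes moved beside Olfml3, as did genes of some other cells. All 8 of the fibroblast list had positive changes in WT after CSDS (median 0.311, none called, and 0.336 without WT CSDS 1 and 5). In knockout-labelled libraries 7 of 8 fell after CSDS (median -0.755). Among those 7, Col3a1 had a CSDS mean below the 0.5 RPKM filter, so its call is not relied on. The difference between the labels had a median of -1.05 with all 8 below 0 and none called. Between control groups, labelled knockout over WT, their median was 0.449, none called. Their summed level ran from 23.3 to 68.7 RPKM in WT controls, 37.4 to 53.2 in WT CSDS, 45.9 to 70.4 in knockout-labelled controls and 26.1 to 35.9 in knockout-labelled CSDS. WT control 10 was the highest WT control both for Olfml3 and for this list. Medians of other lists had the same signs in WT after CSDS, under the knockout label after CSDS and between control groups. They were 0.199, -0.358 and 0.256 for border-associated macrophages, 0.784, -0.076 and 0.229 for choroid plexus, and 1.72, -0.334 and 0.28 for red blood cells. Medians of the neuron, astrocyte, oligodendrocyte and endothelial lists did not share all these signs. The part of other cells in the Olfml3 result was not tested.

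Fcrls, an Fc receptor-like scavenger protein that marks microglia against blood monocytes, was singled out after its values were seen. In WT controls it read 6.05, 6.43, 6.50 and 5.85 RPKM in libraries 6 to 9 and 8.92 in library 10. After CSDS it read 8.67, 8.66 and 9.23 in libraries 2 to 4 and 3.52 and 3.66 in libraries 1 and 5. The WT libraries therefore sat at 3 levels that did not follow the treatment, and the change was -0.09 ± 0.27 on the log2 scale (adjusted p = 0.829) with all of them and 0.38 ± 0.12 (adjusted p = 0.0666) without WT CSDS 1 and 5. Knockout-labelled libraries ran from 7.99 to 11.2. Its spread within groups, an SD of 0.36 on the log2 scale, was the widest of the 33, the next being Ctsd at 0.18. Of the other homeostatic genes, Tmem119, Siglech, Selplg (the P-selectin ligand) and the fructose transporter gene Slc2a5 were called in no comparison, at 0.615 to 12.2 RPKM over the 20 libraries. Siglech in knockout-labelled controls lay wholly above WT controls, as Olfml3 did. Groups did not overlap for 4.96% of all genes in that comparison.

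**Figure D3:**
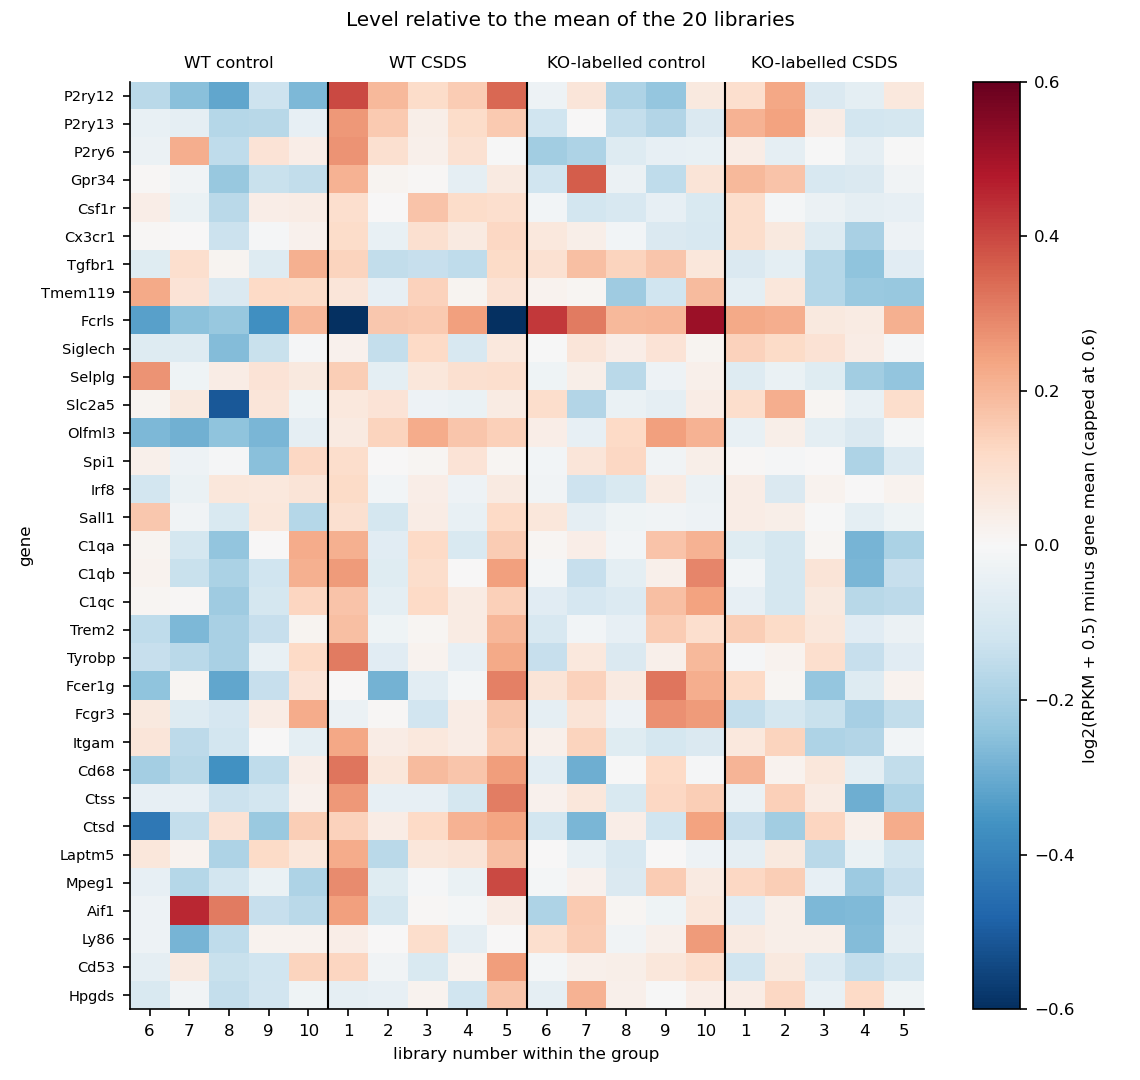
Level of each of the 33 genes (rows) in each of the 20 libraries (columns, by group), as log2(RPKM + 0.5) minus the gene's mean over the libraries, capped at 0.6. The darkest cells are Fcrls in WT CSDS 1 and 5, and those columns hold more red than the rest of their group.

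The transcription factor genes were at low to moderate levels and were called in no comparison. Spi1 ran from 0.535 to 0.842 RPKM, Irf8 from 0.481 to 0.658 and Sall1 from 3.46 to 4.49, and their changes after CSDS lay between 0.02 and 0.07 on the log2 scale in WT (-0.03 to 0.06 without WT CSDS 1 and 5) and between -0.09 and 0.04 in knockout-labelled libraries.

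The C1q chains are encoded side by side on chromosome 4 and were among the most abundant members. C1qa read 27.4, 27.9, 26.8, 30.6 and 31.4 RPKM in knockout-labelled controls and 25.7, 25.2, 27.3, 22.2 and 23.7 after CSDS, groups that overlap only through CSDS library 3. It fell by 0.21 ± 0.06 on the log2 scale (limma, adjusted p = 0.0408), a call that was lost on leaving out any single library except control 8 and CSDS 3. In WT, C1qa read 27.4, 25.2, 22.9, 27.1 and 31.7 in controls and 31.6, 25.8, 29.4, 25.4 and 30.1 after CSDS, overlapping groups with a change of 0.09 ± 0.09 (adjusted p = 0.505), and of 0.01 ± 0.10 without WT CSDS 1 and 5.

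C1qb read 26.9, 24.1, 23.1, 24.3 and 30.7 RPKM in WT controls, 31.6, 25.1, 28.5, 26.5 and 31.5 after CSDS, 26.2, 24.0, 25.4, 27.0 and 32.5 in knockout-labelled controls and 26.1, 24.5, 27.9, 21.7 and 24.0 after CSDS. Neither it nor C1qc was called. All 3 chains had positive changes after CSDS in WT (0.09 to 0.15) and negative ones in knockout-labelled libraries (-0.21 to -0.11). The differences between the labels ran from -0.30 to -0.24 and were not called. Without WT CSDS 1 and 5 the WT changes were 0.01 to 0.07 and the differences -0.22 to -0.17.

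Trem2 read 1.68, 1.51, 1.61, 1.70 and 1.95 RPKM in WT controls and 2.24, 1.88, 1.94, 2.00 and 2.28 after CSDS. The highest control lay within the CSDS values, and libraries 1 and 5 were again the highest. The change was 0.23 ± 0.07 on the log2 scale (limma, adjusted p = 0.0304), and without WT CSDS 1 and 5 it was 0.16 ± 0.07 and no longer called (adjusted p = 0.162). Leaving out WT control 6, 7, 8 or 9, or CSDS 1 or 5, singly also ended the call. In knockout-labelled libraries Trem2 read 1.76, 1.89, 1.83, 2.19 and 2.09 in controls and 2.18, 2.12, 2.03, 1.81 and 1.86 after CSDS (0.03 ± 0.06, adjusted p = 0.818).

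Fcgr3 read 5.07, 5.60, 5.17, 6.50 and 6.42 RPKM in knockout-labelled controls and 4.74, 4.87, 4.78, 4.54 and 4.73 after CSDS. The groups were separate and the gene fell by 0.25 ± 0.07 on the log2 scale (limma, adjusted p = 0.0294). Leaving out control 9, or any single CSDS library, ended that call. In WT it read 5.52, 4.99, 4.90, 5.47 and 6.26 in controls and 5.15, 5.32, 4.84, 5.47 and 5.99 after CSDS, a change of -0.02 ± 0.07 (adjusted p = 0.881), and of -0.05 ± 0.08 without WT CSDS 1 and 5. The signalling adaptors Tyrobp and Fcer1g and the integrin Itgam, at 3.16 to 17.9 RPKM over the 20 libraries, were called in no comparison. For Itgam, 68.7% of exon bases are shared with the overlapping model Gm49368 on the same strand, so its level is uncertain.

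Among the lysosomal and phagosomal genes, Cd68 (ENSMUSG00000018774, chr11:69664213-69666153, minus strand, mm10) read 3.80, 3.92, 3.35, 3.96 and 4.59 RPKM in WT controls and 5.69, 4.69, 5.16, 5.07 and 5.39 after CSDS. The groups were separate, at 1.32-fold between the means and 0.37 ± 0.07 on the log2 scale (limma, adjusted p = 0.00573, and 0.31 ± 0.08 with adjusted p = 0.0413 without WT CSDS 1 and 5). In knockout-labelled libraries it read 4.23, 3.54, 4.45, 4.88 and 4.43 in controls and 5.20, 4.53, 4.68, 4.26 and 3.98 after CSDS, overlapping groups with a change of 0.07 ± 0.08 (adjusted p = 0.63). The difference between the labels, -0.30 (95% interval -0.54 to -0.06), was not called (adjusted p = 0.297).

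Ctss, a cysteine cathepsin of macrophages, read 34.3, 34.3, 32.5, 32.8 and 36.1 RPKM in WT controls and 42.7, 34.3, 34.3, 33.01 and 44.0 after CSDS, so the CSDS values above the controls were those of libraries 1 and 5. Its WT change was 0.14 ± 0.08 (adjusted p = 0.25), and -0.004 ± 0.038 without those libraries. It read 36.1, 37.3, 33.3, 38.8 and 39.4 in knockout-labelled controls and 34.7, 39.3, 36.8, 28.9 and 31.2 after CSDS, overlapping and not called. The perforin-like gene Mpeg1 behaved alike in WT, at 0.22 ± 0.09 with all libraries and 0.07 ± 0.04 without those 2. In 21 of the 33 genes WT CSDS 1 and 5 were the 2 highest of their group, and 13 genes had their highest value of all 20 libraries in WT CSDS 1 (8) or 5 (5). These counts were not made over all genes, so whether they are particular to microglial genes was not tested.

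Ctsd, an aspartic cathepsin that most brain cells express, was the most abundant member. It read 93.0, 114, 133, 108 and 139 RPKM in WT controls, 138, 130, 136, 145 and 148 after CSDS, 116, 104, 129, 116 and 148 in knockout-labelled controls and 114, 109, 137, 128 and 147 after CSDS. Control libraries spread widely, and the WT change of 0.26 ± 0.10 did not pass (limma, adjusted p = 0.079). Its exons share 34.4% of their bases with the overlapping model Gm49369. The membrane protein gene Laptm5 and the 4 other myeloid genes Aif1 (the IBA1 marker), Ly86, Cd53 and Hpgds were called in no comparison, at 1.56 to 11.2 RPKM over the 20 libraries.

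Taking groups instead of tests, the values after CSDS lay wholly above controls for 4 of 33 genes in WT (P2ry12, P2ry13, Olfml3 and Cd68) and wholly below for none, where 17.1% of all genes gave separate groups. In knockout-labelled libraries they lay wholly below for 2 (Tgfbr1 and Fcgr3) and above for none, where 12.9% of all genes did so.

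Between control groups, 23 of 33 genes were higher in libraries labelled knockout, with a median log2 difference of 0.069, beside 0.008 for all genes. The difference of the CSDS effects is the label difference after CSDS minus this one between controls. After CSDS the 2 labels were compared directly. None of the 33 genes was called, against 2.24% of all genes in either direction, although 29 of 33 had lower means in libraries labelled knockout and 13 had an unadjusted p under 0.05 downwards and 1 upwards (limma), where 6.97% and 9.01% of all genes did. The median log2 difference was -0.11, beside 0.004 for all genes. Without WT CSDS 1 and 5 it was -0.057, with 21 of 33 below 0. Only Olfml3 had separate groups, where 5.45% of all genes did. The differences of the CSDS effects were below 0 for 31 of 33 genes, with a median of -0.174, beside -0.004 for all genes, and 12 had an unadjusted p under 0.05 downwards, where 6.06% of all genes did. Without WT CSDS 1 and 5 the median was -0.114, with 29 below 0. These comparisons share libraries with those within each label, and their signs are not independent of them. Differences of the CSDS effects were also below 0 for all 8 endothelial genes (median -0.232) and all 6 tested border-associated macrophage genes (median -0.633). The same held for all 6 choroid plexus genes (-0.854), all 5 red blood cell genes (-2.05) and 7 of 8 astrocyte genes (-0.124). They were below 0 for 6 of 10 neuron genes (median -0.017) and 1 of 8 oligodendrocyte genes (median 0.135). Without WT CSDS 1 and 5 they were below 0 for 5 of 8 oligodendrocyte genes (median -0.032) and 5 of 8 astrocyte genes (-0.041). For neurons it was then 5 of 10 (-0.014). All tested endothelial, border-associated macrophage, choroid plexus and red blood cell genes stayed below 0 (medians -0.194, -0.573, -0.861 and -2.36).

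**Figure D4:**
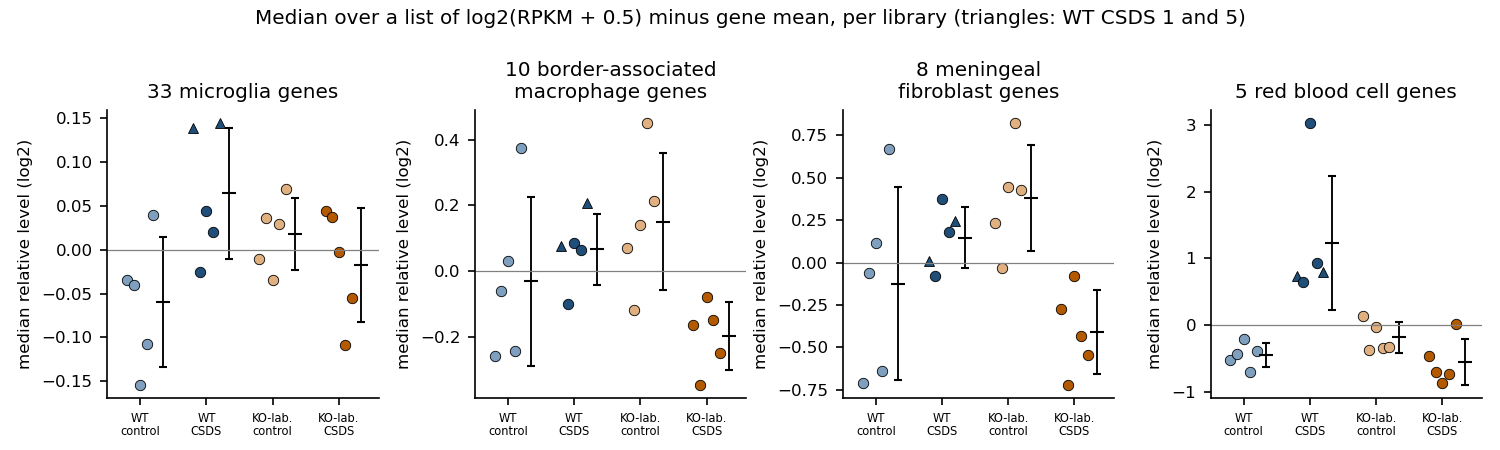
For each library, the median over a gene list of log2(RPKM + 0.5) minus the gene's mean over 20 libraries, with mean and SD beside the 5 points of a group, WT CSDS 1 and 5 as triangles, and a different scale on each axis. The microglia median reached 0.139 and 0.144 in WT CSDS 1 and 5 and lay between -0.154 and 0.069 in the other libraries.

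Genes of other cells were compared in the same way. Of 10 neuron genes, none rose and 1 fell in WT after CSDS (median -0.007), and 2 rose and 1 fell in knockout-labelled libraries (median -0.039). Of 8 astrocyte genes, 2 rose and 1 fell in WT (median 0.087, and 0.011 without WT CSDS 1 and 5), and 2 rose and 2 fell in knockout-labelled libraries (median 0.013). None of 6 choroid plexus genes was called in either label (medians 0.784 and -0.076). Of 10 genes of border-associated macrophages, cousins of microglia in the meninges and around vessels, 6 passed the filter. None of those was called in WT (median 0.199). Mrc1 fell after CSDS in knockout-labelled libraries (-0.52 ± 0.15, limma, adjusted p = 0.0369), where the list had a median of -0.358. F13a1 passed the filter only through the control group, with means of 0.911 RPKM there and 0.488 after CSDS, so its call is not counted. Their summed level ran from 4.24 to 9.61 RPKM in WT controls, 5.92 to 9.06 in WT CSDS, 5.51 to 10.9 in knockout-labelled controls and 4.02 to 5.68 in knockout-labelled CSDS, and none of the 10 was at 0 in all libraries. All 5 red blood cell genes rose in WT after CSDS (median 1.72, and 4 of 5 without WT CSDS 1 and 5), from a sum of 206 to 297 RPKM in controls to 558.5 to 2807, and none of them was called in knockout-labelled libraries (median -0.334). After CSDS all 5 were lower in libraries labelled knockout than in WT (median -1.75). Of 8 endothelial genes, 1 rose and 2 fell in WT (0 and 2 without WT CSDS 1 and 5), and 1 rose and 6 fell in knockout-labelled libraries (median -0.29). All 7 structural RNA genes, such as Rn7sk, fell after CSDS in WT (median -1.14, and 5 of 7 without WT CSDS 1 and 5), and 4 of 7 in knockout-labelled libraries (median -1.26). Of these 7, Rmrp and Rnu1a1 passed the filter only through the controls, so their calls are not relied on. Of 10 monocyte and neutrophil markers, Ly6c2 averaged 7.58 RPKM (6.62 to 10.7 over the 20 libraries) and was not called, and the other 9 averaged 0.0133 to 0.358, with Ccr2 at 0.0978. Lymphocyte markers included Trbc2 at 0.622 RPKM, not called, and Cd3e at 0.0277. The part of other cells in the microglial results was not tested.

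Other microglial genes were counted beside the members. Of 40 further microglial genes, 33 were tested in WT, where 3 rose and 3 fell after CSDS. Those that rose included the lysosomal protease gene Lgmn (0.15 ± 0.03, limma, adjusted p = 0.00612) and the lipid enzyme gene Lpcat2 (0.18 ± 0.06, 0.0466, and 0.16 as the adjusted p without WT CSDS 1 and 5). Those that fell included the adhesion receptor gene Adgrg1 (-0.27 ± 0.06, 0.00929) and Crybb1 (-0.34 ± 0.09, 0.0244). Without WT CSDS 1 and 5, 1 rose and 3 fell of 32 tested. In knockout-labelled libraries none rose and 4 of 32 fell, among them Adgrg1 (-0.12 ± 0.03, 0.022), Fcgr1 (-0.21 ± 0.05, 0.0297) and the organic anion transporter gene Slco2b1 (-0.19 ± 0.05, 0.0333). Fcgr1 was also lower after CSDS in libraries labelled knockout than in WT (-0.30 ± 0.06, 0.0126), a call that was lost without WT CSDS 1 and 5 (-0.22 ± 0.06, 0.112).

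Of 18 genes known from disease-associated microglia, 15 were tested. The phagocytic receptor gene Axl rose after CSDS in both labels (0.35 ± 0.04, limma, adjusted p = 0.000627 in WT, and 0.17 ± 0.04, 0.0115 in those labelled knockout), and none of the other 14 was called. Of 18 cytokine and NF-kB genes, 5 were tested in WT. The prostaglandin synthase gene Ptgs2, which neurons also express, rose (0.36 ± 0.07, 0.00528), and the NF-kB inhibitor gene Tnfaip3 fell (-0.25 ± 0.05, 0.00527). The chemokine gene Ccl12 averaged 0.266 RPKM in WT controls and 0.736 after CSDS. It reached the filter only through the CSDS group, and not without WT CSDS 1 and 5, so its call is not counted. Tnfaip3 fell in knockout-labelled libraries too (-0.28 ± 0.07, 0.0196), where 4 were tested and none rose.

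Among 12 ligands of microglial receptors, the CSF1R ligand gene Il34, made by neurons, fell after CSDS in WT (-0.21 ± 0.03, limma, adjusted p = 0.00224) and in knockout-labelled libraries (-0.28 ± 0.05, 0.0036), and App fell in WT (-0.15 ± 0.03, 0.0143). Without WT CSDS 1 and 5 the App call was lost (adjusted p = 0.0756). Of the extracellular nucleotide genes, 9 of 12 were tested. Entpd2, which cleaves ATP, rose (0.38 ± 0.07, 0.00364 in WT, and 0.24 ± 0.04, 0.00423 in those labelled knockout), and the adenosine receptor gene Adora1 fell in both (-0.18 ± 0.04, 0.00678, and -0.13 ± 0.04, 0.0336).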

How the data were processed

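Poly(A) RNA of mouse hippocampi was sequenced as 75-base single reads and aligned with STAR to mm10, per the submitters' processing notes. How reads were counted is not given in the sources used here. The authors deposited RPKM per library and per group, and, per the file headers, log2 fold changes and mean abundances, a likelihood ratio score and p-values of an edgeR test, none of which is a result here. Mean abundances were identical in both tables for all 17840 genes the authors tested, so RPKM were compared across tables. Depth was recovered from 11945 single-exon genes in GENCODE M21, and 92.8 to 94.0% of values then lay within 0.05 of a whole read. Tests used limma 3.58.1 (R 4.3.3) with a mean trend, two-sided, with the groups of 1 genotype for CSDS effects and all 4 groups otherwise. In simulated WT data (18274 genes, 200 changed), 66% of 1.25-fold and 83% of 1.5-fold changes were recovered, and 5.7% of the calls were false. Only the WT comparison was simulated, and 22.4% of genes were called in the WT data themselves, so recovery there can differ. Folds on this scale understate changes of low genes. Genes named are all members, and from each other functional list up to 4 called genes of smallest p, a few of which are not reported here. The members, lists and tests were chosen with earlier results of these data known. Alternatives were other pseudocounts, filters, scalings, label readings, fits and left-out libraries.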

Additional observations from a re-analysis of the deposited data

Results flagged for a closer look

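Among 132 groups of 5 libraries (33 genes in 4 groups), 7 held a library far from the others of its group by Dixon's criterion, where chance alone gives about 1 in 20. In WT control 8, Cx3cr1 read 10.1 RPKM against 11.1 to 11.3 in the others, and Slc2a5 0.615 against 1.06 to 1.17. In WT control 10, the WT control with high Xist, Fcrls read 8.92 RPKM against 5.85 to 6.50, and Olfml3 3.36 against 2.78 to 2.90. Sall1 read 4.17 RPKM in knockout-labelled control 6 against 3.80 to 3.90. Csf1r read 22.5 RPKM in knockout-labelled CSDS 1 against 20.1 to 20.7, and Cd53 2.23 in knockout-labelled CSDS 2 against 1.87 to 1.98. The effect of CSDS on Olfml3 differed between the labels, by -0.52 on the log2 scale (limma, interaction contrast, adjusted p = 0.00375), as described above.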

How the results depend on the processing

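Counting the 3 libraries of conflicting label as CSDS changed most: the WT call count went from 5 to 1 (P2ry12), the knockout-labelled one from 3 to 0, the difference of effects from 1 to 0, and that between labels after CSDS from 0 to 1 (Selplg). Counting them as controls gave 3 instead of 1 between control groups (Siglech, Olfml3 and Trem2) and 1 instead of 0 after CSDS (Selplg). Without a filter on low values the knockout-labelled count was 1 (Tgfbr1). Fitting only the groups compared gave 2 between controls (Fcrls and Olfml3) and 1 after CSDS (Olfml3), array weights gave 1 after CSDS (Selplg), and leaving out control 10 of both labels gave 1 after CSDS (Olfml3). The cause was not tested. Leaving out each replicate in turn gave 4 to 6 calls in WT, 1 to 3 in knockout-labelled libraries (1 without control 9, CSDS 1, CSDS 4 or CSDS 5), 1 between controls, 0 to 1 after CSDS (1, Selplg, without WT CSDS 2) and 1 for the difference. Calls over all genes moved too, to 3077 to 4016 in WT (4093 in the main fit) and 1658 to 3668 in knockout-labelled libraries (2747). For the difference they were 16 to 244 (27). All-gene counts under the label readings, filters and fits above are not given, so a general change in calls was not separated. Adding the replicate number as a block changed no call (1 between controls, 0 after CSDS, 1 for the difference). Same-numbered libraries of the 2 labels correlated between -0.107 and 0.371 over genes, above 0.1 for 3 of 10 pairs, and 4 of 10 WT libraries correlated best with their own number, so the numbers were not taken as a pairing. Of 920 recomputed fold changes of the 8 genes called anywhere, 882 kept their side of the threshold, 34 lost the call and 4 gained one. None changed sign where either the main or the recomputed value was called. Changes of sign between values that were both not called were not counted. Fcgr3 in WT, for example, ran from -0.0549 to 0.0313 on leaving out single libraries. With 5 libraries a group small changes can be missed, as some were in the simulated data.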
